A study of Mus musculus with 816 samples.

Results

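The comparison set 18 cultures of mouse microglia given lipopolysaccharide (LPS) directly against 6 cultures given P3C, each for 24 h and each as the only stimulus. LPS is the bacterial outer-membrane glycolipid sensed by TLR4, and P3C (Pam3CysSerLys4) is a synthetic triacylated lipopeptide sensed by TLR2 with TLR1. These 24 cultures were taken from the 816 samples of the series by their labels alone, and no measured value was used to choose them. The series measured bulk RNA from wells of primary neonatal mouse microglia, a commercial preparation grown in 96-well plates and exposed to a panel of stimuli. The label LPS_hi stood for 0.0001 µg/µl and P3C was given at 0.001 µg/µl, so that ligand and concentration cannot be told apart. Untreated cultures at 24 h (n = 40), a lower LPS concentration at 24 h (LPS_lo, 0.00001 µg/µl, n = 7) and cultures kept for 72 h (13 with LPS_hi, 6 with P3C and 25 untreated) were used beside them. All cultures were grown in the same medium, and the labels do not say which wells came from separate animals. The p-values rest on a spread between wells that was pooled over all groups of a fit, untreated wells included. They treat each well as independent. The P3C wells at 24 h were 3 neighbouring wells on each of 2 plates, so p-values without a plate term can overstate the replication.

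TLR4 is carried at the cell surface with MD-2 (Ly96) and is handed LPS by CD14. It signals first through TIRAP and MyD88 to NF-kB and MAP kinases, and then, after uptake, through TRAM (Ticam2) and TRIF (Ticam1) to TBK1 and IRF3, which switch on the interferon-beta gene and, by way of the secreted interferon, the interferon-stimulated genes. TLR2 paired with TLR1 or TLR6 is known mainly for the MyD88 branch, so a direct contrast of the ligands is a textbook way to look at the TRIF branch in myeloid cells such as microglia.

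Values are CPM (the mapped reads of a gene relative to all mapped reads of its library, on the usual scale), differences are LPS_hi minus P3C on the log2(CPM + 1) scale with their standard error, and a gene was called where the adjusted p from limma (Benjamini-Hochberg over all genes tested) was under 0.05 and the difference was at least 1. Depth ran from 1144000 to 14267000 reads in the LPS_hi cultures and from 1595000 to 15553000 reads in the P3C cultures, and 7243 to 8848 and 6668 to 8214 genes exceeded 5 CPM. The LPS_hi cultures came from 6 plates, 8 library pools and 3 lots of cells, and the P3C cultures from 2 plates, 2 pools and 2 lots. The plates shared by both ligands held 3 P3C cultures each, one with 1 LPS_hi culture in a neighbouring well and one with 2 LPS_hi cultures. All 9 microglia markers listed passed the filter, with summed levels of 2783 to 3956 CPM with P3C, 1721 to 4485 CPM with LPS_hi and 4396 to 10847 CPM untreated. The markers of T and NK cells, B cells and neutrophils did not pass it in any case, and their sums stayed at or below 60.5 CPM in every culture of both ligands. Other lists reached higher sums, with no member called. With P3C and LPS_hi the highest sums were 125 and 135 CPM for fibroblasts and pericytes and 104 and 119 CPM for endothelial cells. They were 80.8 and 137 CPM for the oligodendrocyte lineage and 307 and 237 CPM for dendritic cells. Of 4 perivascular macrophage markers, 2 were tested and Pf4 was the one called, higher with P3C. The sum for the list was 138 to 1477 CPM with P3C and 88.1 to 856 CPM with LPS_hi. The Pf4 call was lost with library pool as a term (-0.97) and on the 2 shared plates alone (-0.62). Fewer cells of a type and less RNA per cell cannot be told apart in these bulk wells.

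Sequence in front of the genes is shown first, because the genes that separated the ligands most were interferon-stimulated genes, whose promoters are known to hold interferon-stimulated response elements. Stretches ending at the annotated start of 5 such genes are printed 5′ to 3′ on the gene's own strand from RefSeq on GRCm38.p6, with every match to GAAANNGAAA or to its reverse complement TTTCNNTTTC in capitals, overlapping matches joined. They come from chr19:34583329-34583528 (+ strand) for Ifit3, chr4:156200819-156200938 (- strand) for Isg15, chr12:26456453-26456612 (- strand) for Rsad2, chr3:142496734-142496933 (+ strand) for Gbp5 and chr5:92348890-92349129 (- strand) for Cxcl10.
Ifit3: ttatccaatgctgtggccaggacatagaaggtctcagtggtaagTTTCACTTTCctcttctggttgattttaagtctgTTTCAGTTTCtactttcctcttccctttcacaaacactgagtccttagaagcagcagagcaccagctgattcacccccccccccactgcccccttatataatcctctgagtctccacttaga
Isg15: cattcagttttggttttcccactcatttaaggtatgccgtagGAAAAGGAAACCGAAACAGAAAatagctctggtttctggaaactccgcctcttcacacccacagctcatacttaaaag
Rsad2: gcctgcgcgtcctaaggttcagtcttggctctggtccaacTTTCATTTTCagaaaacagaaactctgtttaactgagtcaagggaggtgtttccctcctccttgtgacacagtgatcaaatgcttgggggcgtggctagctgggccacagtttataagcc
Gbp5: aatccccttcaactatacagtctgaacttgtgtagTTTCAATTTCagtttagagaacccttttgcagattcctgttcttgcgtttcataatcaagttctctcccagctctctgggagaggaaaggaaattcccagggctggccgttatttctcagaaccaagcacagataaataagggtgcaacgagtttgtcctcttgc
Cxcl10: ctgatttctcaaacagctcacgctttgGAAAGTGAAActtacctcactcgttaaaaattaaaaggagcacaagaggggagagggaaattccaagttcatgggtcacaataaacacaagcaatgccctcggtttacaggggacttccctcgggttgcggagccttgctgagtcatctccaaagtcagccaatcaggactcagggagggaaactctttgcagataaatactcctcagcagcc
The matches began 156 and 122 bases before the start of Ifit3, 78, 72 and 66 bases before that of Isg15, 120 bases before that of Rsad2, 165 bases before that of Gbp5 and 213 bases before that of Cxcl10. Of 32851 promoters in the table (250 bases before to 50 after each start), 3.44% held the motif on either strand. It was found in 18 of 33 matched antiviral interferon-stimulated genes (54.5%), in 10 of 11 guanylate-binding protein and IRG genes (90.9%), in 98 of 1234 genes called higher with LPS_hi (7.94%), in 6 of 270 called higher with P3C (2.22%) and in 330 of 8470 genes tested (3.9%). A match is a run of letters, not a bound site. Nos2, Mx1 and Ccl5 had no entry.

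Of 11918 genes tested, 2068 (17.4%) were called between the ligands, 1672 (14%) higher with LPS_hi and 396 (3.32%) higher with P3C. The median gene differed by 0.27, and with quantile normalization, which set that median to -0.06, the split was 896 against 827 genes. With culture plate as a term, 913 genes (7.66%) were higher with LPS_hi and 232 (1.95%) higher with P3C. The sign was kept under the plate term by 1671 of the 1672 and by 396 of the 396 genes. With library pool as a term it was kept by 1138 of the 1672 and 370 of the 396 genes, and 402 genes were called. P3C replicates 4, 5 and 6 had a library pool to themselves, so that the contrast with the pool term rested on P3C replicates 1, 2 and 3. The pool of these held LPS_hi replicate 14 and no other LPS_hi culture. Called with the plate term and with quantile normalization as well were 667 genes higher with LPS_hi and 163 higher with P3C. In 155 genes (1.3%) every LPS_hi culture lay above every P3C culture, and in 23 genes (0.193%) every one lay below.

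Many genes of the LPS-higher set were genes that P3C lowered. Against the same 40 untreated cultures, which both contrasts share, LPS_hi raised 881 genes (7.39%) and lowered 1840 (15.4%), and P3C raised 549 (4.61%) and lowered 3289 (27.6%). The median gene changed by -0.26 with LPS_hi and by -0.51 with P3C. The same P3C cultures entered the direct contrast and the one against untreated, so that the overlap of their calls was partly built in. Of the genes called higher with LPS_hi, 359 rose with LPS_hi and were not called with P3C, 44 rose with both and 48 rose with LPS_hi and fell with P3C. Another 817 fell with P3C and were not called with LPS_hi, 146 fell with both and 258 were called with neither. Of those called higher with P3C, 127 rose with P3C and were not called with LPS_hi, 21 rose with both, 5 rose with P3C and fell with LPS_hi, 86 fell with LPS_hi and were not called with P3C, 8 fell with both and 149 were called with neither.

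**Figure D1:**
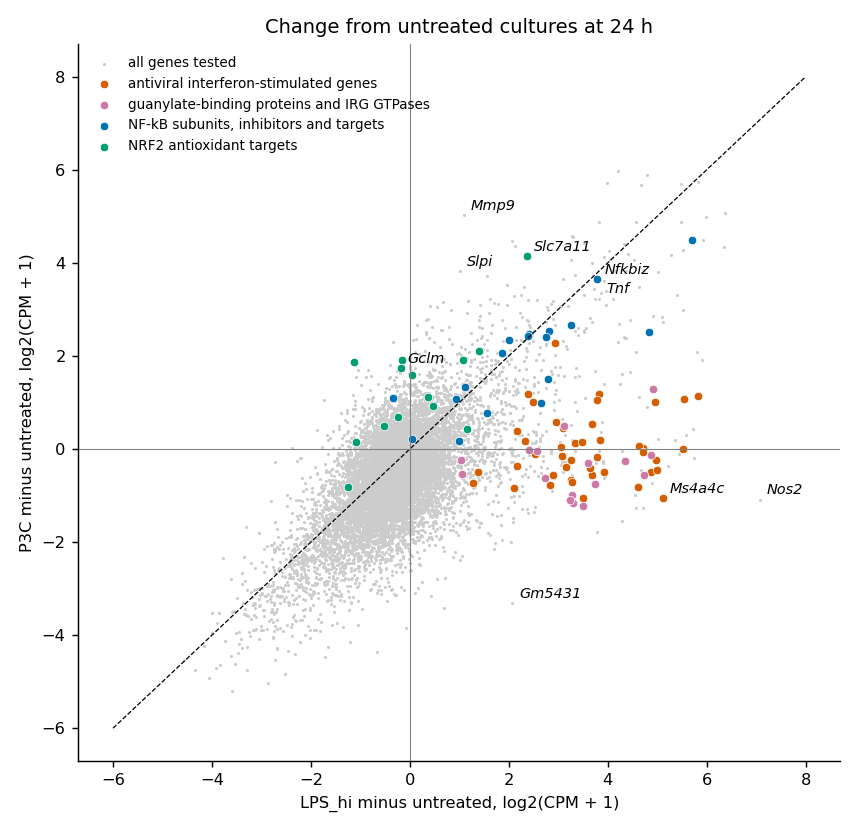
Change from untreated at 24 h for every gene tested on the log2(CPM + 1) scale, LPS_hi on the x axis and P3C on the y axis, with the members of 4 gene lists coloured and equal change dashed; both axes share the 40 untreated cultures. The antiviral interferon-stimulated genes lie at a median of 3.48 on the x axis and -0.11 on the y axis, and the NRF2 targets at -0.05 and 1.35.

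The gene with the largest difference was Nos2 (chr11:78920787-78960254, + strand, GRCm38), which makes the inducible nitric oxide synthase. Its lowest, median and highest levels were 0.653, 0.935 and 3.13 CPM with P3C, 63.4, 617 and 2055 CPM with LPS_hi and 0, 2.64 and 22 CPM untreated. The ranges of the ligands were apart by more than an order of magnitude, and the P3C cultures lay within the untreated range. The difference was 8.16 ± 0.65 (adjusted p = 1.9e-17, limma), 6.79 with the plate term and 7.31 with quantile normalization. On the plates shared by the ligands, Nos2 stood at 63.4 CPM with LPS_hi beside 0.692 to 1.09 CPM with P3C, and at 637 to 1962 CPM beside 0.653 to 3.13 CPM. The culture at 63.4 CPM, in the well next to P3C wells, was the lowest of the 18 LPS_hi cultures, and it was also the lowest for Cxcl10, Ifit3, Gbp5 and Il1rn.

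The other 11 genes at the head of the LPS-higher ranking were Ms4a4c, Mnda, Cxcl10, Pyhin1, Phf11a, AA467197, Gm14446, Mmp13, Ifi205, Cxcl9 and Slfn1, with differences of 5.53 to 6.17. In each of these 12 genes the ranges of the ligands did not overlap, beside 1.3% of all genes with LPS_hi above. The 12 were ranked by their difference in these same cultures, which favours ranges that lie apart. Each kept its call with plate, with pool and with lot as a term. Ms4a4c, a four-pass membrane protein of the MS4A family, stood at 0, 4.51 and 10.8 CPM with P3C (lowest, median and highest) and at 121, 268 and 407 CPM with LPS_hi, a difference of 6.17 ± 0.47 (adjusted p = 3.1e-18, limma). Cxcl10 (chr5:92346638-92348889, - strand), the chemokine that calls CXCR3-bearing T cells, stood at 0.836, 8.81 and 33.3 CPM with P3C and 39.2, 570 and 872 CPM with LPS_hi, a difference of 5.95 ± 0.72 (adjusted p = 3e-10, limma). In both genes every LPS_hi culture lay above every P3C culture, and in Cxcl10 the gap was small, from 33.3 to 39.2 CPM. Within plates Cxcl10 was 39.2 CPM with LPS_hi beside 0.836 to 1.94 CPM with P3C, and 359 to 593 CPM beside 15.7 to 33.3 CPM.

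Mmp13, a collagenase, moved against untreated in opposite directions with the ligands. It stood at 0, 6.13 and 17.8 CPM untreated, 0, 0.326 and 5.4 CPM with P3C and 41.1, 75.5 and 235 CPM with LPS_hi. It rose by 3.78 with LPS_hi and fell by 1.78 with P3C. Gm5431, a predicted gene, moved likewise, at 9.18, 61.4 and 243 CPM untreated, 0, 6.38 and 17 CPM with P3C and 86.1, 214 and 475 CPM with LPS_hi. Its change was 2.07 with LPS_hi and -3.32 with P3C, and 53 genes in all were called in opposite directions, 48 of them higher with LPS_hi. Mnda, Pyhin1, Ifi205, Phf11a and Slfn1 belong to families of near-identical copies, and their reads may be split among relatives.

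**Figure D2:**
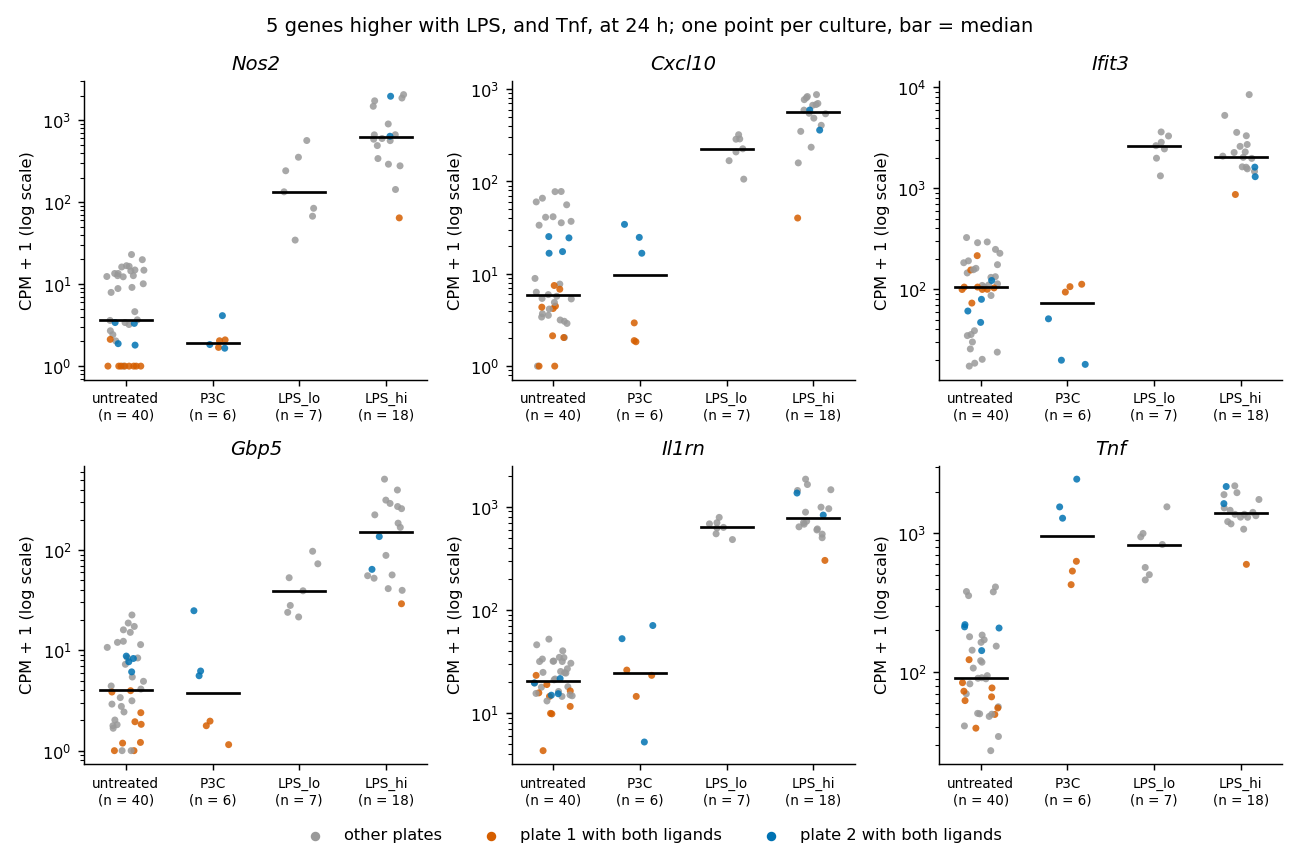
Levels of Nos2, Cxcl10, Ifit3, Gbp5, Il1rn and Tnf in each 24 h culture (CPM + 1, log axis), by group and coloured by culture plate, with the group median as a bar. The LPS_hi cultures lie above all P3C cultures in the first 5 genes, and in Tnf the ranges overlap at 426 to 2457 CPM with P3C and 597 to 2199 CPM with LPS_hi.

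Of 43 antiviral interferon-stimulated genes listed, 42 were called higher with LPS_hi and none with P3C, beside 14% and 3.32% of all genes tested. The list median was 3.54 (3.52 with the plate term, 3.76 with the pool term, 3.14 with quantile normalization) beside 0.27 for all genes. With plate as a term 41 were called, with pool 41 and on the 2 shared plates alone 35. In 29 the ranges did not overlap, with LPS_hi above, beside 1.3% of all genes. Against untreated, all 43 rose with LPS_hi, while with P3C 6 rose and 2 fell, with list medians of 3.48 and -0.11. The shares over all genes were 7.39% rising with LPS_hi, and 4.61% rising and 27.6% falling with P3C.

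Ifit3 (chr19:34583531-34588731, + strand), which binds viral RNA with its IFIT partners, stood at 17, 71.3 and 111 CPM with P3C, 867, 2054 and 8474 CPM with LPS_hi and 16.3, 104 and 324 CPM untreated. The P3C cultures lay inside the untreated range and the LPS_hi cultures above both. The difference was 5.42 ± 0.46 (adjusted p = 4e-16, limma), and reads of the near-copy Ifit3b may be split with it. Rsad2, which encodes viperin, stood at 36.9, 49.3 and 53.2 CPM with P3C and 607, 2403 and 3585 CPM with LPS_hi, a difference of 5.36 ± 0.49 (adjusted p = 7.7e-15, limma). Mx1, a dynamin-like antiviral GTPase, stood at 2.28, 12.7 and 49.5 CPM with P3C and 142, 461 and 584 CPM with LPS_hi, a difference of 4.79 ± 0.48 (adjusted p = 2.7e-13, limma). In none of these 3 genes did a P3C culture reach the lowest LPS_hi culture. Isg15, the ubiquitin-like modifier, differed by 4.45 ± 0.46 (adjusted p = 1.2e-12, limma), but its highest P3C culture at 244 CPM lay above the lowest LPS_hi culture at 171 CPM. Oasl1, an oligoadenylate synthetase-like protein, was raised by P3C too: it changed by 1.13 with P3C and 5.82 with LPS_hi, and it differed between them by 4.69 ± 0.48 (adjusted p = 9.9e-13, limma).

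The exception among the 43 genes was Oas1g, an oligoadenylate synthetase whose reads may be split with other Oas1 copies. It stood at 15.5, 16.2 and 47.9 CPM with P3C, 10.7, 31 and 97.9 CPM with LPS_hi and 0, 3.24 and 17 CPM untreated, and differed by 0.67 ± 0.50 (adjusted p = 0.35, limma). Its ranges overlapped, and its change from untreated was 2.27 with P3C and 2.94 with LPS_hi. With library pool as a term it was called higher with LPS_hi (2.71). Slfn5 passed the test narrowly at 1.78 ± 0.67 (adjusted p = 0.043, limma) and lost the call with the plate term (0.68) and without any single P3C culture other than replicate 4 (1.51 to 1.81).

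The guanylate-binding proteins and immunity-related GTPases, which attack the vacuoles of intracellular pathogens, gave 15 of 16 genes higher with LPS_hi and none with P3C. This stood beside 14% and 3.32% of all genes, and the list median was 4.08 (3.94 with plate). Ranges did not overlap in 10 of the 16 genes, with LPS_hi above, beside 1.3% of all genes. On the 2 shared plates alone 11 were called higher with LPS_hi. Gbp5 (chr3:142493978-142522344, + strand), which also promotes NLRP3 assembly, stood at 0.148, 2.77 and 23.8 CPM with P3C and 28.1, 151 and 507 CPM with LPS_hi, a difference of 5.00 ± 0.60 (adjusted p = 2.6e-10, limma). The RefSeq start of Gbp5, and the promoter stretch that ends at it, lie inside the GENCODE interval given here. Ifi47, an IRG GTPase, stood at 6.27, 19.5 and 55.5 CPM with P3C and 193, 606 and 1068 CPM with LPS_hi, a difference of 4.72 ± 0.37 (adjusted p = 7.9e-18, limma). Gbp2 differed by 4.59 ± 0.39, from a median of 32 CPM with P3C to 935 CPM with LPS_hi. Against untreated all 16 rose with LPS_hi, whereas 1 rose and 2 fell with P3C. Of all genes tested, 7.39% rose with LPS_hi, and 4.61% rose and 27.6% fell with P3C. Tgtp1, whose copy Tgtp2 shares its sequence, was not called (1.27 ± 0.53, adjusted p = 0.075, limma), but was with cell lot as a term (1.46) and where all single-stimulus conditions were fitted (1.27).

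MHC class I and antigen processing genes gave 19 of 21 higher with LPS_hi and none with P3C, beside 14% and 3.32% of all genes. Their median was 1.80 (1.76 with plate). Tap1, a chain of the peptide transporter, stood at 12.8, 22.1 and 67.4 CPM with P3C and 97.1, 178 and 210 CPM with LPS_hi, a difference of 2.70 ± 0.28 (adjusted p = 2.3e-12, limma) without overlap. H2-K1, a classical class I heavy chain in a family of near-identical genes, stood at 1149, 2363 and 3859 CPM with P3C and 2449, 7846 and 10634 CPM with LPS_hi, and differed by 1.67 ± 0.29 (adjusted p = 6.7e-06, limma) with overlapping ranges. On the 2 shared plates alone H2-K1 was not called (1.34), and 12 of the 21 genes were called higher with LPS_hi. The members not called were the chaperones Calr (-0.03 ± 0.26) and Pdia3 (0.31 ± 0.43), which serve glycoprotein folding at large. MHC class II genes gave 2 of 7 higher with LPS_hi and none with the plate term, beside 14% and 7.66% of all genes.

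Ifnb1, the interferon-beta gene itself, did not pass the filter: it was listed at 0 in every P3C culture and had a median of 0 and a maximum of 1.78 CPM with LPS_hi, beside 3.09 CPM in the highest untreated culture. Of 12 type I interferon signalling genes tested, 8 were higher with LPS_hi and 1 with P3C, beside 14% and 3.32% of all genes, with a median of 1.90. Irf7, which amplifies interferon transcription, stood at 44.1, 110 and 168 CPM with P3C and 724, 1250 and 1762 CPM with LPS_hi, a difference of 3.51 ± 0.45 (adjusted p = 1.8e-09, limma). Usp18, the ISG15 protease that dampens receptor signalling, stood at 10.8, 19.3 and 118 CPM with P3C and 197, 456 and 627 CPM with LPS_hi, and differed by 3.89 ± 0.36 (adjusted p = 1.4e-14, limma). The LPS_hi cultures lay above the P3C cultures in both genes. Ifnar1, a chain of the interferon receptor, was the member higher with P3C (-1.07 ± 0.39, adjusted p = 0.036, limma), and its call was lost with the plate term (-0.74) and without P3C replicate 1, 2, 3 or 6 (-1.08 to -0.78).

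**Figure D3:**
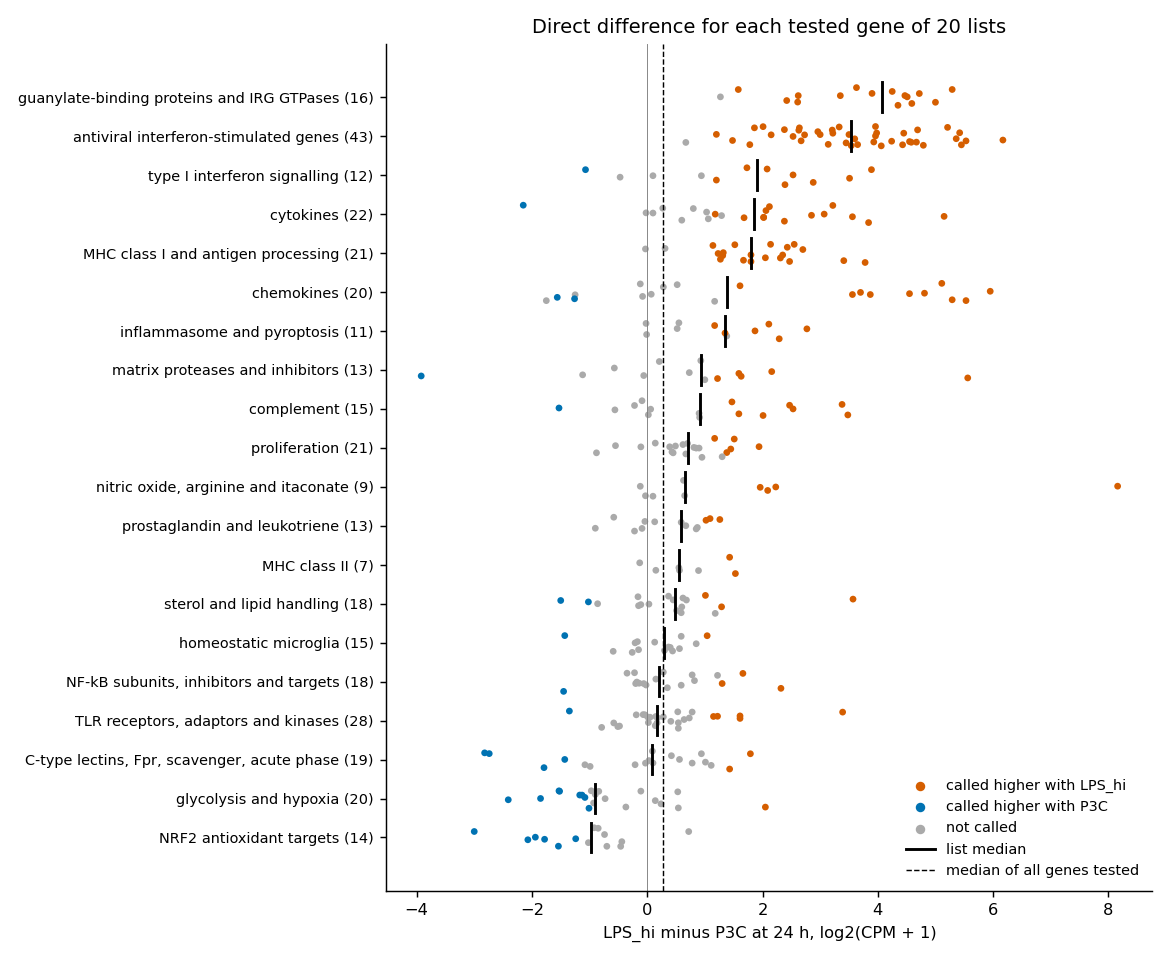
Difference between LPS_hi and P3C at 24 h on the log2(CPM + 1) scale for each tested member of 20 gene lists, with the list median as a black tick and the median of all genes tested (0.27) dashed. The guanylate-binding proteins and IRG GTPases lie farthest to the LPS side with a median of 4.08, and the NRF2 targets (-0.97) and the glycolysis and hypoxia genes (-0.91) lie on the P3C side.

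Among 28 TLR pathway genes tested, 5 were higher with LPS_hi (Tlr3, Tlr7, Traf3, Traf6 and Tbk1) and 1 with P3C (Map3k7, which encodes the kinase TAK1), beside 14% and 3.32% of all genes, with a median of 0.17. With library pool as a term none was higher with LPS_hi, Map3k7 lost its call (-1.0) and 1 other gene was higher with P3C. Tlr4, the LPS receptor, stood at 0.653, 7.63 and 22.4 CPM with P3C and 2.03, 9.8 and 20.8 CPM with LPS_hi (0.64 ± 0.43, adjusted p = 0.3, limma). Tlr2 stood at 70.4, 87.5 and 105 CPM with P3C and 28.4, 108 and 166 CPM with LPS_hi (0.02 ± 0.37, adjusted p = 0.97, limma), and against untreated it changed by 1.47 with P3C and 1.5 with LPS_hi. Tlr1 changed by 2.23 and 2.75, and Cd14, the LPS-transfer protein, by 2.73 and 2.75. No gene of the adaptors Myd88 (0.54 ± 0.27), Tirap (0.28 ± 0.35), Ticam1 (0.73 ± 0.37) and Ticam2 (0.17 ± 0.44), nor Ly96 (0.41 ± 0.42) and Tlr6 (0.14 ± 0.46), was called between the ligands.

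Tlr3, which senses double-stranded RNA and signals through TRIF, was the receptor gene with ranges apart. It stood at 0, 1.32 and 5.27 CPM with P3C, 7.67, 31.7 and 51.4 CPM with LPS_hi and 0, 8.1 and 27.7 CPM untreated. The difference was 3.39 ± 0.53 (adjusted p = 4.8e-07, limma), made of a rise of 1.58 with LPS_hi and a fall of 1.81 with P3C from untreated. Its call was lost with the pool term (1.22, adjusted p = 0.3, limma). Tbk1, the kinase of the TRIF branch, differed by 1.22 ± 0.22 (adjusted p = 1.7e-05, limma) and Traf6 by 1.61 ± 0.37 (adjusted p = 0.00063, limma). Neither was called with the pool term (0.70 and 0.84), and Tbk1 was not called with quantile normalization (1.0).

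NF-kB subunits, inhibitors and targets rose with both ligands: 14 of 18 rose with LPS_hi and 13 with P3C, beside 7.39% and 4.61% of all genes. Their medians were 2.40 and 2.21 from the shared untreated cultures. Directly, 3 were higher with LPS_hi (Tnfaip3, Cd40 and Tnfrsf1b) and 1 with P3C (Nfkbid, not with the plate term), beside 14% and 3.32% of all genes. The list median was 0.21, close to that of all genes. Nfkbia, the inhibitor IkB-alpha and an early NF-kB target, stood at 499, 761 and 909 CPM with P3C and 716, 1080 and 1527 CPM with LPS_hi. Its difference of 0.59 ± 0.20 had an adjusted p of 0.021 (limma) and was under the minimum of 1. Tnfaip3, which encodes a ubiquitin-editing brake on NF-kB, differed by 1.66 ± 0.34, and by 0.88 with the plate term, where it was not called. Cd40, the costimulatory receptor, differed by 2.32 ± 0.53 (adjusted p = 0.00064, limma), and by 1.73 with the pool term, where it was not called.

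Cytokine genes divided. Tnf stood at 426, 956 and 2457 CPM with P3C and 597, 1394 and 2199 CPM with LPS_hi, and its difference of 0.60 ± 0.39 did not pass the test (adjusted p = 0.28, limma). Il1b changed by 5.07 with P3C and 6.36 with LPS_hi from untreated and differed by 1.29 ± 0.65 (adjusted p = 0.15, limma), with 1 P3C culture at 28.4 CPM far below the median of 609 CPM. Il1b was called higher with LPS_hi with library pool as a term (2.5) and where the LPS_hi and P3C cultures alone were fitted (1.29). Il10 also did not pass it (0.80 ± 0.65, adjusted p = 0.41, limma). In these 3 genes the ranges of the ligands overlapped widely.

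Il1rn (chr2:24336853-24351494, + strand), the interleukin-1 receptor antagonist, was apart from Il1b. It stood at 4.24, 23.6 and 69.6 CPM with P3C, 301, 777 and 1852 CPM with LPS_hi and 3.32, 19.3 and 51.1 CPM untreated. The P3C cultures spread over the untreated range and a little above it, and every LPS_hi culture was above them. The difference was 5.15 ± 0.34 (adjusted p = 2.4e-21, limma), and 4.59 with the plate term. Il27, an interleukin-12 family subunit, stood at 4.78, 7.88 and 11.9 CPM with P3C and 42.3, 67.9 and 174 CPM with LPS_hi (3.07 ± 0.48, adjusted p = 6.2e-07, limma). Il15, which sustains NK and memory T cells, rose by 1.69 with LPS_hi and fell by 2.15 with P3C, and its levels of 0.415 to 4.58 CPM with P3C lay below the 8.64 to 73.7 CPM with LPS_hi. Il6 rose with both (2.86 with P3C, 4.92 with LPS_hi) and differed by 2.06 ± 0.45 (adjusted p = 0.00036, limma), and Il12b, the p40 subunit, differed by 2.85 ± 0.42 (adjusted p = 1.6e-07, limma). On the 2 shared plates alone Il12b was not called (2.06). In all, 13 of 22 cytokine genes were higher with LPS_hi (10 with the plate term) and 1, Tgfb1, with P3C, beside 14% and 3.32% of all genes.

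Tgfb1, the homeostatic cytokine TGF-beta1, stood at 115, 134 and 189 CPM with P3C, 12.2, 24.3 and 101 CPM with LPS_hi and 13.9, 74.3 and 154 CPM untreated. Every P3C culture was above every LPS_hi culture, and the difference was -2.15 ± 0.37 (adjusted p = 5.2e-06, limma). It moved with plate: 101 CPM with LPS_hi stood beside 115 to 155 CPM with P3C on one shared plate, and 56.4 to 89.3 CPM beside 119 to 189 CPM on the other, and the difference was -1.06 with the plate term and -0.77 with the pool term, where it was not called.

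Among 20 chemokines tested, 10 were higher with LPS_hi (9 with the plate term) and 2 with P3C, Cxcl5 and Cxcl14 (1 with the plate term, none on the 2 shared plates alone), beside 14% and 3.32% of all genes. Cxcl14 was not called without P3C replicate 3 (-1.05). Cxcl5, a neutrophil attractant, stood within plates at 42.6 CPM with LPS_hi beside 7.11 to 47.6 CPM with P3C, and at 18.3 to 36.1 CPM beside 0.636 to 19.9 CPM. The monocyte attractants Ccl2 and Ccl7 and the CXCR3 ligands Cxcl9 and Cxcl10 did not overlap between the ligands. Ccl2 stood at 0.653, 17.3 and 57.4 CPM with P3C and 140, 561 and 994 CPM with LPS_hi, a difference of 5.29 ± 0.55 (adjusted p = 1.1e-12, limma) and of 3.81 with the plate term. Ccl5, which draws T cells and monocytes, stood at 450, 1237 and 5801 CPM with P3C and 9449, 20106 and 41388 CPM with LPS_hi, a difference of 3.70 ± 0.53 (adjusted p = 5.4e-08, limma). It was raised by P3C as well, by 2.09 beside 5.80 with LPS_hi. Ccl3, a macrophage inflammatory chemokine, stood at 225, 407 and 489 CPM with P3C and 186, 495 and 775 CPM with LPS_hi and did not differ past the test (0.28 ± 0.34, adjusted p = 0.6, limma). Of the neutrophil attractants, Cxcl1 and Cxcl2 did not pass it, Cxcl1 by -1.25 ± 0.92 (adjusted p = 0.35, limma) and Cxcl2 by -1.75 ± 0.80 (adjusted p = 0.11, limma), which was called without P3C replicate 3 (-2.24). The LPS_hi cultures ran from 24.3 to 5332 CPM in Cxcl2. On the shared plates Cxcl1 stood at 159 CPM with LPS_hi beside 56.7 to 283 CPM with P3C, and at 197 to 732 CPM beside 78.4 to 259 CPM. Cxcl2 stood there at 557 CPM beside 229 to 1420 CPM, and at 1352 to 5332 CPM beside 1998 to 3685 CPM. Fitted on those plates alone, the differences were 0.70 for Cxcl1, -0.04 for Cxcl2 and 1.44 for Cxcl5, none of them called, so that the sign of Cxcl1 and Cxcl5 turned.

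Among the nitric oxide, arginine and itaconate genes, 4 of 9 were higher with LPS_hi, beside 14% of all genes. The gene annotated Irg1, now Acod1, makes the enzyme of itaconate synthesis and stood at 98.7, 128 and 192 CPM with P3C and 336, 551 and 910 CPM with LPS_hi, a difference of 2.09 ± 0.53 (adjusted p = 0.0021, limma). Its groups did not overlap, although P3C raised it by 3.31 from untreated. Slc7a2, the arginine importer CAT2, differed by 1.96 ± 0.42 (adjusted p = 0.00022, limma) and Arg1 by 2.23 ± 0.49 (adjusted p = 0.00037, limma). With library pool as a term the calls of Irg1 (1.0) and Arg1 (0.45) were lost. On the 2 shared plates alone Irg1 (1.61) and Slc7a2 (1.47) were not called. The inflammasome list gave 6 of 11 higher with LPS_hi, beside 14% of all genes. With library pool as a term 2 were called, and on the 2 shared plates alone none. Among the 6 were Casp1 (2.29 ± 0.26, adjusted p = 2.5e-11, limma) and Casp4, the mouse caspase-11 gene that senses cytosolic LPS (2.11 ± 0.39, adjusted p = 2.3e-05, limma). On the 2 shared plates alone these differences were 1.44 and 1.53. Nlrp3 was alike in value with both ligands (-0.02 ± 0.47, adjusted p = 0.99, limma).

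Complement genes were higher with LPS_hi in 7 of 15 cases, beside 14% of all genes. From untreated 5 of the 15 fell with P3C and 1 with LPS_hi, beside 27.6% and 15.4%. C1qc, a chain of the initiator C1q, stood at 126, 194 and 354 CPM with P3C, 246, 1357 and 2369 CPM with LPS_hi and 696, 1440 and 5862 CPM untreated. It changed from untreated by -2.97 with P3C and -0.50 with LPS_hi, and differed by 2.47 ± 0.37 (adjusted p = 2.7e-07, limma), though its call was lost with the pool term (1.12). C1qa and C1qb differed by 1.47 ± 0.26 and 2.01 ± 0.27. On the 2 shared plates alone C1qa and C1qc were not called (0.99 for each). C1qb was not called there without the LPS_hi well beside the P3C wells (1.36). C2, which forms the classical C3 convertase, stood at 0, 7.05 and 12 CPM with P3C and 21.3, 56.4 and 111 CPM with LPS_hi, without overlap (3.48 ± 0.36, adjusted p = 9.3e-13, limma). Cfp, properdin, was the 1 member called higher with P3C, but its difference of -1.53 ± 0.39 was -0.25 with the plate term and 0.24 with the pool term.

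On the P3C side, the gene with the largest difference was Mmp9 (chr2:164940780-164955850, + strand), the gelatinase B gene. It stood at 64.5, 76.1 and 202 CPM with P3C, 0.201, 4.31 and 48.1 CPM with LPS_hi and 0, 1.75 and 16.4 CPM untreated. Every P3C culture was above every LPS_hi culture, and the difference was -3.92 ± 0.62 (adjusted p = 7.1e-07, limma). From untreated it rose by 5.02 with P3C and by 1.09 with LPS_hi. On the shared plates Mmp9 stood at 47.3 CPM with LPS_hi beside 80.7 to 202 CPM with P3C, and at 5.04 to 12.6 CPM beside 64.5 to 71.5 CPM. Fitted on those plates alone the difference was -2.54 and was not called (adjusted p = 0.16, limma).

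The other 11 genes at the head of that side were Nqo1, Slpi, Gm26623, Clec4n, Fgr, H1fx, Gsta3, Phgdh, Spn, Lox and Rnd3, with differences of -3.0 to -2.49. The ranges of the ligands overlapped in all 11, unlike Mmp9. In 0.193% of all genes every LPS_hi culture lay below every P3C culture. Of the 12 genes, 11 kept their call with the plate term (not Gm26623, adjusted p = 0.052, limma). With library pool as a term, which rested on P3C replicates 1, 2 and 3, Gsta3 alone kept it. Slpi, a secreted protease inhibitor, stood at 6.97, 14.5 and 66.9 CPM with P3C and 0, 0.467 and 46 CPM with LPS_hi (-2.82 ± 0.50, adjusted p = 1.1e-05, limma). Clec4n, the fungal lectin Dectin-2, stood at 52, 110 and 206 CPM with P3C, 2.21, 11.3 and 79.5 CPM with LPS_hi and 0.538, 37.2 and 135 CPM untreated (-2.74 ± 0.65, adjusted p = 0.00091, limma). Phgdh, the first enzyme of serine synthesis, stood at 7.49, 29.5 and 66.4 CPM with P3C and 0, 3.57 and 15.7 CPM with LPS_hi (-2.54 ± 0.47, adjusted p = 2.2e-05, limma). In each of these 3 genes the highest LPS_hi cultures reached past the lowest P3C cultures.

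Of 14 antioxidant genes driven by NRF2, 6 were higher with P3C and none with LPS_hi, beside 3.32% and 14% of all genes, with a median of -0.97 (-0.98 with plate, -0.94 with pool). With the plate term 5 were called, with the pool term 4 and on the 2 shared plates alone 1. From untreated, 8 of the 14 rose with P3C and none fell, beside 4.61% and 27.6% of all genes. With LPS_hi 4 rose and 3 fell, beside 7.39% and 15.4%. Gclm (chr3:122245557-122270732, + strand), the regulatory subunit of the first enzyme of glutathione synthesis, stood at 1081, 1487 and 1682 CPM with P3C, 196, 355 and 954 CPM with LPS_hi and 188, 389 and 2062 CPM untreated. The ligands did not overlap, and the difference was -1.94 ± 0.30 (adjusted p = 5.8e-07, limma), with -2.12 for the plate term. Srxn1, sulfiredoxin, stood at 247, 372 and 547 CPM with P3C and 46.3, 87.2 and 337 CPM with LPS_hi (-2.07 ± 0.30, adjusted p = 1.2e-07, limma). Txnrd1, thioredoxin reductase, stood at 76.2, 103 and 167 CPM with P3C and 11.1, 36.9 and 88.3 CPM with LPS_hi (-1.54 ± 0.30, adjusted p = 4.7e-05, limma). In both genes 1 or more LPS_hi cultures reached into the P3C range. Nqo1, a quinone reductase, ran from 0 to 63.3 CPM with P3C and from 0 to 7.35 CPM with LPS_hi (-3.0 ± 0.59, adjusted p = 6.3e-05, limma). Slc7a11, the cystine importer, rose with both ligands, by 4.14 with P3C and 2.36 with LPS_hi, and differed by -1.78 ± 0.44 (adjusted p = 0.0016, limma). Hmox1, heme oxygenase, was not called (0.72 ± 0.26, under the minimum of 1). The calls of Nqo1 (-1.95) and Slc7a11 (-0.95) were lost with the pool term.

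The place of a well on its plate moved with these genes. Of the P3C cultures 4 of 6 stood at an edge or corner, beside 6 of 18 LPS_hi and 10 of 40 untreated cultures. The lowest, median and highest Gclm levels were 376, 712 and 2062 CPM in untreated wells at the edge and 188, 357 and 598 CPM in those in the middle. With LPS_hi it stood at 394, 581 and 954 CPM at the edge and 196, 298 and 436 CPM in the middle. The 2 P3C cultures in middle wells stood at 1081 and 1618 CPM, above the middle wells of both other groups. Srxn1 in these 2 cultures, at 247 and 371 CPM, was likewise above the 46.3 to 110 CPM of the middle wells with LPS_hi. So were Txnrd1, Slc7a11 and Ftl1, whereas Hmox1 lay below and the other genes of the list overlapped. Nqo1, for one, stood at 0 and 63.3 CPM beside 0 to 6.82 CPM. Both cultures came from the same plate and library pool, and the cause of the differences was not tested. With plate edge as a term, chosen after seeing the data, 6 of the 14 genes were higher with P3C and the median was -0.83, beside 0.31 for all genes. Gclm then differed by -1.59, Srxn1 by -1.74, Slc7a11 by -1.45, Txnrd1 by -1.26 and Nqo1 by -2.78, all called.

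The antioxidant response element is the site NRF2 is known to bind. Its core, TGACNNNGC or the reverse complement GCNNNGTCA, was searched in the same promoters after these values had been seen, and is capitalised in stretches of 160 bases ending at the starts of Gclm (chr3:122245397-122245556, + strand) and Gsta3 (chr1:21240425-21240584, + strand; a glutathione S-transferase).
Gclm: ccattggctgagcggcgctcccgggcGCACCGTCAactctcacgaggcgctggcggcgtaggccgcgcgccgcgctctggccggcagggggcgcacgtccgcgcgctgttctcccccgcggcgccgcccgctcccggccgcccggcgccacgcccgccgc
Gsta3: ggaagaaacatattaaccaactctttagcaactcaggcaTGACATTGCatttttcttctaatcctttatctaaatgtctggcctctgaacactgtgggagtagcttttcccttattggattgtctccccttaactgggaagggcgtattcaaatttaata
The match began 134 bases before the start of Gclm and 121 bases before that of Gsta3. The core was present in 6 of 11 matched NRF2 targets (54.5%), in 50 of 270 genes called higher with P3C (18.5%), in 204 of 1234 called higher with LPS_hi (16.5%), in 1454 of 8470 genes tested (17.2%) and in 12.4% of all promoters. None of the 11 held the interferon motif. Mmp9 had no entry.

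**Figure D4:**
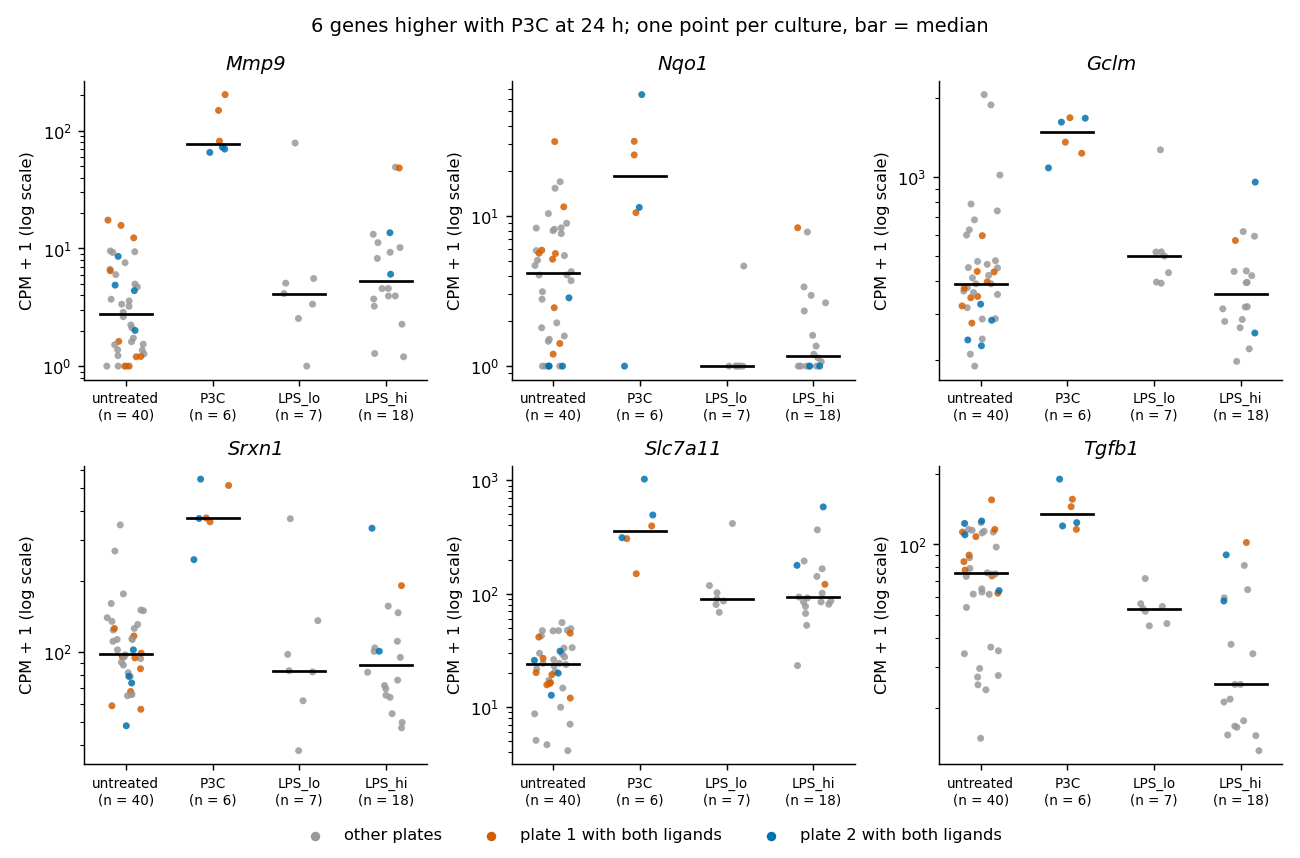
Levels of Mmp9, Nqo1, Gclm, Srxn1, Slc7a11 and Tgfb1 in each 24 h culture (CPM + 1, log axis), by group and coloured by culture plate, with the group median as a bar. All P3C cultures lie above all LPS_hi cultures in Mmp9, Gclm and Tgfb1, and in Nqo1, Srxn1 and Slc7a11 some LPS_hi cultures reach the P3C range.

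Glycolysis and hypoxia genes gave 8 of 20 higher with P3C (3 with the plate term) and 1 higher with LPS_hi, beside 3.32% and 14% of all genes. The list median was -0.91. On the 2 shared plates alone none was called and the median was -0.4. From untreated 11 of the 20 rose with P3C and 4 with LPS_hi, beside 4.61% and 7.39% of all genes. Adm, the vasodilator peptide adrenomedullin, stood at 5.64, 48 and 163 CPM with P3C and 0, 8.38 and 49.8 CPM with LPS_hi (-2.41 ± 0.53, adjusted p = 0.00037, limma), and was not called with the pool term (-1.61). Ndrg1, a stress-responsive gene, differed by -1.85 ± 0.51 (adjusted p = 0.0046, limma), and the enzymes Aldoa and Eno1 by -1.08 ± 0.20 and -1.17 ± 0.27, which became -0.98 and -0.71 with the plate term and were then not called. The member higher with LPS_hi was Pfkfb3, which makes the activator of phosphofructokinase (2.05 ± 0.38, adjusted p = 2.9e-05, limma), and it was not called with library pool as a term (0.58) or on the 2 shared plates alone (1.73).

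Of 15 homeostatic microglia genes, 13 fell from untreated with LPS_hi and 11 with P3C, beside 15.4% and 27.6% of all genes. Directly 1 was higher with each ligand, beside 14% and 3.32%. Cx3cr1, the fractalkine receptor, changed by -3.22 with LPS_hi and -3.07 with P3C (difference -0.15 ± 0.35, adjusted p = 0.81, limma). Fitted on the 2 shared plates alone it was called higher with P3C (-1.52, and -2.29 without the LPS_hi well beside the P3C wells). Csf1r, the receptor microglia need to survive, stood at 1564, 2855 and 3199 CPM with P3C and 437, 881 and 2364 CPM with LPS_hi (-1.43 ± 0.25, adjusted p = 7.3e-06, limma), and was not called with the plate term (-0.84). Proliferation genes fell with both, 19 of 21 with LPS_hi and 20 with P3C, beside 15.4% and 27.6% of all genes. Directly, 5 of the 21 were higher with LPS_hi, beside 14% of all genes. Of the other lists, C-type lectins, formyl peptide and scavenger receptors and acute-phase proteins gave 2 of 19 higher with LPS_hi and 4 with P3C, matrix proteases and inhibitors 5 and 1 of 13, prostaglandin and leukotriene genes 3 and 0 of 13, and sterol and lipid genes 3 and 2 of 18, beside 14% and 3.32% of all genes.

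The lower LPS concentration gave a second set of cultures against the same 6 P3C cultures, though on plates without P3C. LPS_lo was higher than P3C in 1087 genes (9.12%) and lower in 292 (2.45%). Of the 1672 genes called higher with LPS_hi, 1655 kept their sign and 894 were called, and of the 396 higher with P3C, 395 kept it and 180 were called. The antiviral list gave 38 of 43 higher with LPS_lo and a median of 3.40, and the NRF2 list 6 of 14 higher with P3C and a median of -0.99. Nos2 differed by 6.09 and Il1rn by 4.74 at this concentration. The neutrophil chemokine Cxcl2 differed by -3.80, beside -1.75 with LPS_hi, and Il6 by -0.51, beside 2.06 with LPS_hi, though the concentrations were compared by value alone.

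At 72 h the contrast had fewer calls and leaned the other way. Of 11365 genes tested, 135 (1.19%) were higher with LPS_hi and 488 (4.29%) higher with P3C (174 and 235 with the plate term). The median gene differed by -0.41. Of the 1578 genes higher with LPS_hi at 24 h and tested at 72 h, 99 were called higher with LPS_hi again and 65 higher with P3C, and of 379 higher with P3C at 24 h, 27 were called so again and 6 higher with LPS_hi. A test of the change in the contrast from 24 to 72 h called 2432 of 12711 genes (19.1%), and 594 with the plate term.

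The antiviral list kept its direction, with 35 of 42 genes higher with LPS_hi at 72 h and a median of 2.57, and so did Ifit3, at 8.22, 79 and 93.7 CPM with P3C and 504, 1371 and 1998 CPM with LPS_hi (4.73 ± 0.70, adjusted p = 4.3e-06, limma). Of the guanylate-binding proteins and IRG GTPases, 2 of 13 were called, with a median of 1.38. Nos2 turned over: at 72 h it stood at 1.27, 57.3 and 105 CPM with P3C and 0, 0 and 43.3 CPM with LPS_hi (-3.32 ± 0.88, adjusted p = 0.015, limma), and its contrast changed by -11.47 between the times (adjusted p = 8.7e-15, limma). Il1rn no longer differed past the test (0.54 ± 0.63, adjusted p = 0.66, limma). Cxcl10 was still higher with LPS_hi, by 2.46 ± 0.61 (adjusted p = 0.008, limma).

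None of the 14 NRF2 targets was higher with P3C at 72 h, 1 was higher with LPS_hi, and the median was 0.24 (-0.37 with the plate term). At 72 h all 6 P3C cultures stood in middle wells, and all LPS_hi cultures but replicates 11, 12 and 13 stood at an edge. At 24 h P3C had the larger share of edge wells, and the effect of well position on the 72 h values was not tested. Glycolysis and hypoxia genes went further to the P3C side, with 12 of 20 higher and a median of -1.70. Ndrg1 stood at 177, 513 and 575 CPM with P3C and 0, 8.58 and 50.4 CPM with LPS_hi at 72 h, a difference of -5.73 ± 0.69 (adjusted p = 3.3e-08, limma) without overlap. Lox, lysyl oxidase, which crosslinks collagen, stood at 352, 394 and 869 CPM with P3C and 7.03, 22.4 and 91.9 CPM with LPS_hi, a difference of -4.18 ± 0.50 (adjusted p = 4.1e-08, limma), beside -2.49 ± 0.74 at 24 h.

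**Figure D5:**
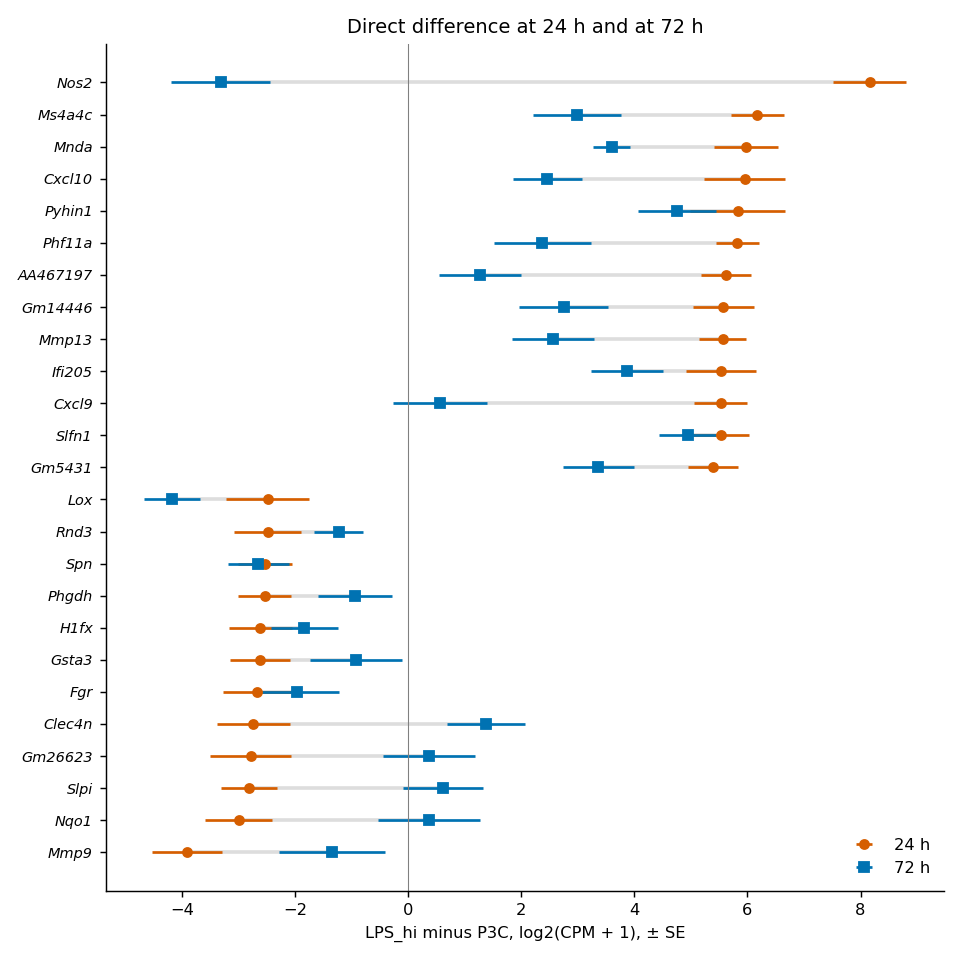
Difference between LPS_hi and P3C on the log2(CPM + 1) scale with its standard error at 24 h and at 72 h for 25 genes named by rank. Nos2 goes from 8.16 at 24 h to -3.32 at 72 h, Slfn1 stays near its value (5.53 and 4.94), and Lox goes from -2.49 to -4.18.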

How the data were processed

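Bulk RNA was measured from wells of primary mouse microglia by reverse transcription with barcoded primers, T7 amplification of pooled cDNA and 3′-tag libraries, and the authors quantified transcripts with Salmon 0.7.1. The deposited values are CPM, since the authors summed reads per gene and divided by the total mapped reads without a length term, and the columns of the groups used sum to 998079 to 999918. The submitters' processing notes name mm8, whereas the methods name Ensembl build 81. Shallow libraries and libraries with few genes expressed were dropped by the authors before deposit.

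Of 784 columns in the table for cultured cells, 418 were read and 366 were not used, and the table of in vivo samples was not used. Values were fitted as log2(CPM + 1) with limma 3.58.1 in R 4.3.3 (trend in the prior) over the single-ligand and untreated cultures of a time point, for genes above 5 CPM in at least 4 cultures. The reported fit had no plate term, and the alternatives had plate, pool, lot or plate edge as a term, other pseudocounts, filters and scalings, an exact rank-sum test and P3C cultures left out. Depth was estimated from the value of 1 read. On simulated data of 11918 genes for the direct contrast, 61 of 100 genes changed by 1.5 and 98 of 100 changed by 3 (log2) were recovered, with 11 false calls. The simulated cultures were independent, with no plate, pool or lot effect, so these counts do not measure false calls in the plated design.

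Genes were named by rank (the 12 largest called differences in each direction with the same sign under the plate term and at least 5 CPM in the higher group, and the 5 largest called in opposite directions), from the gene lists, and for receptors, adaptors and Ifnb1. The members and lists were chosen with earlier results of these data known. Gene positions are from GENCODE vM21 on GRCm38, and Mnda, Pyhin1 and Gm14446 were not matched.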

Additional observations from a re-analysis of the deposited data

Results flagged for a closer look

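Among 110 named genes examined in the 6 P3C cultures at 24 h, 9 had a culture whose gap to its nearest neighbour exceeded Dixon's critical share of the range, where chance flags about 1 in 20 groups. The highest culture stood apart in Nos2 (3.13 CPM), in Oas1g (47.9 CPM) and in Slfn5 (23 CPM). The lowest stood apart in Gm26623 (0.354 CPM), Lox (0.833 CPM), Ccl3 (225 CPM), Il1b (28.4 CPM), Slc7a2 (23.9 CPM) and C1qb (138 CPM).

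Of 25 genes named by rank, 14 had a difference between the ligands that changed from 24 to 72 h by the interaction test (limma), beside 19.1% of all genes. The 25 were chosen for large differences at 24 h, and the same 24 h values entered this test. A smaller difference at 72 h was therefore favoured in advance, and the count is no independent evidence of a change with time. The change, 72 h minus 24 h on the log2(CPM + 1) scale, was -11.47 for Nos2, -3.19 for Ms4a4c, -2.37 for Mnda, -3.5 for Cxcl10, -3.45 for Phf11a, -4.35 for AA467197, -2.82 for Gm14446, -3.01 for Mmp13, -4.97 for Cxcl9 and -2.03 for Gm5431, all higher with LPS_hi at 24 h. On the P3C side it was 3.38 for Nqo1, 3.43 for Slpi, 3.16 for Gm26623 and 4.11 for Clec4n. The share of edge wells of each ligand also differed between the times, and its effect was not tested. With plate as a term, Nos2, Ms4a4c, AA467197, Gm14446, Cxcl9 and Slpi were still called.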

How the results depend on the processing

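P3C was measured on 2 of the 6 plates that held LPS_hi, so plate, library pool and ligand were separated in few wells. With library pool as a term the contrast rested on P3C replicates 1, 2 and 3, since replicates 4, 5 and 6 had a pool to themselves. No paired analysis was possible because the labels give no replicate numbers that link cultures, so the plate, which links wells of both ligands on 2 plates, was used as a term. The counts called (all, higher with LPS_hi, higher with P3C; 2068, 1672 and 396 as reported) were 1145, 913 and 232 with culture plate as a term, 402, 260 and 142 with library pool as a term, 1177, 932 and 245 by the exact rank-sum test, and 1158, 897 and 261 with a pseudocount of 5. Quantile normalization gave 896 and 827, median-of-ratios scaling 1422 and 583 (median gene 0.166), and no minimum difference 660 higher with P3C. Leaving out P3C cultures in turn gave 1859 to 2110 genes, 1375 to 1771 and 339 to 484. In 3 alternatives chosen after seeing the data, plate edge as a term gave 2296, 1877 and 419, the plates with both ligands alone gave 307, 244 and 63, and the same without the LPS_hi well beside the P3C wells 397, 279 and 118. With the plate term LPS_lo gave 169 genes lower than P3C, the 72 h contrast 409 (235 higher with P3C), and the change from 24 to 72 h 594 (101 and 493). The 23 genes in which every P3C culture was above every LPS_hi culture became 27 to 46 with a P3C culture left out, 38 without replicate 5 and 46 without replicate 6. Of 110 named genes, 85 were called, and 35 kept direction and call in every setting. Slfn5 reversed on the shared plates (-0.26, and -0.35 without the neighbouring well), and Cfp with the pool term (0.24). The causes were not tested.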

Other observations

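Of the study's co-expression modules, whose names join a colour code and a colour, 31 were counted here, and because they were built on these samples their members are not independent evidence of a direction. Over all genes tested, 14% were higher with LPS_hi and 3.32% with P3C. Of 148 genes in BR_turquoise, which holds Mx1, Rsad2, Isg15, Irf7 and Usp18, 138 were higher with LPS_hi, none with P3C, and the median difference was 2.60, beside 0.27 for all genes tested. BR_blue, with Gbp2, Tap1 and Casp1, had 43 of 45 genes higher with LPS_hi (37 with the plate term), and PI_blue, with Cxcl9, Cxcl10, Gbp5 and Socs1, had 16 of 20 (14 with the plate term). CY_red, which holds Tnf, Nos2, Cd40, Il27 and the itaconate gene Irg1, rose with LPS_hi in 29 of 29 genes and with P3C in 21, and 11 were higher with LPS_hi directly. From untreated, 7.39% of all genes rose with LPS_hi and 4.61% with P3C.

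Genes higher with P3C, 3.32% of all genes at 24 h, were spread over other modules. CY_yellow, with Mmp9, Slpi, Slc7a11 and S100a8, had 8 of 29 tested genes higher with P3C (8 with the plate term) and 3 higher with LPS_hi. YE_brown, with Lox, Ndrg1, Aldoa and Eno1, had 10 of 49 higher with P3C at 24 h (4 with the plate term) and 22 at 72 h. YE_turquoise, with Adm, Ccl3, Il10 and Nfkbiz, rose with LPS_hi in 59 and with P3C in 70 of 107 genes, and 15 were higher with P3C directly. CY_turquoise stood near equality, with 35 of 38 genes raised by LPS_hi, 37 raised by P3C, 2 called in each direction and a median difference of 0.00. LPS_hi raised 7.39% of all genes and P3C 4.61%.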
